A study of Mus musculus with 6 samples.

Results

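The comparison described here set mouse embryonic stem cells (ESCs) that make an acidic patch mutant of the histone variant H2A.Z, denoted H2A.ZAP3, against ESCs labelled as a knockdown of endogenous H2A.Z by a hairpin, denoted H2A.ZKD. It asks what the mutant protein adds to expression beyond the hairpin. Genes entered when their RPKM (a read count scaled to transcript length and library depth) was at least 1 in either library, which kept 12163 of the 21639 entries of the expression table. The effect is log2((H2A.ZAP3 + 1)/(H2A.ZKD + 1)) in RPKM, so the change of genes with low levels is understated, and "higher" or "lower" below means past 1.5-fold on this scale.

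H2A.Z replaces H2A in a subset of nucleosomes, is exchanged into chromatin by the SRCAP and p400/Tip60 remodelers, and flanks the start sites of active genes as well as the poised (bivalent) developmental genes of ESCs. Its acidic patch is a negatively charged surface of the nucleosome that contacts neighbouring nucleosomes and chromatin proteins. In H2A.ZAP3 the 3 residues that set this surface apart from H2A were replaced by their H2A counterparts, G92N, D97N and S98K, each written as the H2A.Z residue, its position and the new residue. In mouse, H2A.Z is encoded by H2afz, and H2afv encodes a near-identical second isoform.

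Libraries came from 3 lines at D0 (ESCs) and at D3 (embryoid bodies, EBs, cultured without LIF), with 1 library for each line and day. The H2A.ZWT and H2A.ZAP3 lines carried lentiviral, doxycycline-inducible transgenes for YFP-tagged wild-type or mutant H2A.Z, were induced and sorted for YFP, and also held a lentiviral hairpin to the H2A.Z 3′ UTR, as the H2A.ZKD line does. ESCs were grown with LIF on irradiated embryonic fibroblast feeders and without feeders for the final passage. The labels give the V6.5 strain while the methods name KH2 ESCs for the transgenes, and the methods place the hairpins in the inducible transgenic lines. Which transgene the H2A.ZKD cells carry, and whether doxycycline was given to them, is not stated for this library, so the effects of the mutant protein, of YFP and of induction cannot be told apart in the comparison. With no replicate, no difference below has a replicate check or a p-value. In bulk RNA, fewer cells of a type and less RNA per cell cannot be told apart.

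The hairpin targets are shown because they decide which H2afz transcripts the knockdown reaches. H2afz lies on the plus strand at chr3:137527451-137529886 (NCBIM37, the build called mm9), and both 21-base targets match its mRNA strand in the last exon, downstream of the coding sequence. The target that the labels name sh#2 and the methods sh#1 lies at chr3:137529455-137529475 and begins 47 bases past the last coding base. The target that the labels name sh#5 and the methods sh#2 lies at chr3:137529551-137529571, 143 bases past it. The labels' names are used here, and which target was used for each library is not stated.
sh#2: aacagctgtccagtgttggtg
sh#5: aattagccttccaaccaacca

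H2afz was not lower under the hairpin label in ESCs. Its level was 279 RPKM in H2A.ZWT, 343 RPKM in the library labelled H2A.ZKD and 304 RPKM in H2A.ZAP3 ESCs, and 258, 236 and 394 RPKM in the EBs of the same lines. The ESC library with the highest level was thus the one with the knockdown label, so it is called the KD-labelled library below. Transgene coding reads, which lack both target sites, fall on the same exons as endogenous reads, so the table does not separate them. The study itself reported, by qRT-PCR and by western blot, that the hairpin depleted endogenous H2A.Z. H2afv (chr11:6327229-6344446, minus strand) was at 52.2, 57.2 and 54.4 RPKM in the ESC libraries of the WT, KD and AP3 labels. Of 21 tested genes of H2A.Z and its exchange machinery none was higher and 1 was lower, Epc2, a subunit of the p400/Tip60 complex, at 11.5 RPKM in the KD-labelled and 7.14 RPKM in the H2A.ZAP3 library.

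Depth was estimated from the step between low RPKM values at 18.9 M reads for the KD-labelled and 27.6 M reads for the H2A.ZAP3 ESC library, so that 1 RPKM on a 2 kb transcript corresponded to 37.8 and 55.2 reads. The defining ESC markers were high in both. The 6 such genes, Pou5f1, Sox2, Nanog, Zfp42, Dppa5a and Utf1, summed to 2146 RPKM in the KD-labelled and 2163 RPKM in the H2A.ZAP3 library. Fibroblast markers were low but higher in H2A.ZAP3, where 8 genes summed to 47.3 RPKM against 24.2 RPKM in the KD-labelled and 27.9 RPKM in the H2A.ZWT library. Of these, 6 were above the KD-labelled value, led by Col1a2 at 22.5 against 11.8 RPKM. Thy1 was below it, at 1.74 against 2.42 RPKM, and Postn was listed at 0. The 6 endoderm markers summed to 26.0 RPKM in H2A.ZAP3 and 11.2 RPKM in the KD-labelled library, with Afp and Ttr listed at 0 in the former. The endothelial and blood, trophectoderm and neural markers each summed to 12.2 RPKM or less in H2A.ZAP3.

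**Figure D1:**
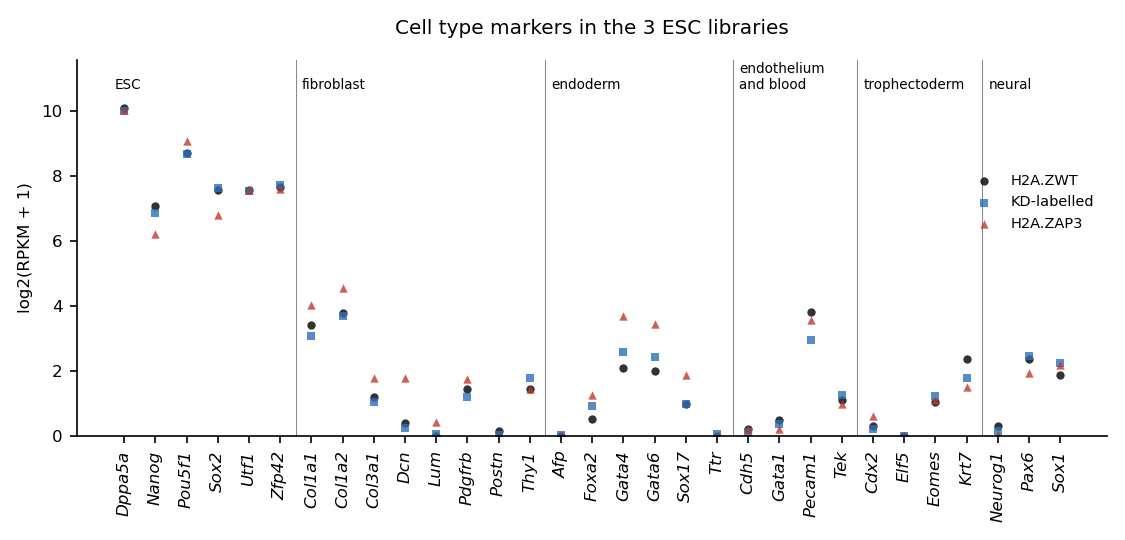
Cell type markers in the 3 ESC libraries, each point the level of a gene in 1 library as log2(RPKM + 1), with no replicates and no error bars. ESC markers sit far above the rest in every library, while Gata4, Gata6, Sox17, Col1a1, Col1a2 and Dcn are highest in H2A.ZAP3.

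Between the libraries, 935 genes (7.69% of those tested) were higher and 500 (4.11%) were lower in H2A.ZAP3 ESCs, and the median log2 over all tested genes was 0.03. The ESC counts of every gene list below are to be read beside these shares. Past 2-fold, 209 were higher and 137 lower. At the edge of the rule, App was just inside at 10.8 and 16.7 RPKM and Fpgt just outside at 1.82 and 3.23 RPKM; on the lower side, Apex2 was just inside at 4.49 and 2.66 RPKM and BC068157 just outside at 2.58 and 1.39 RPKM. The lower genes included 75 small RNA genes, 10 of them copies of Rn4.5s, and 42 replication-dependent histone genes, classes that poly(A)-selected libraries measure poorly. The higher genes included 35 small RNA genes, none a copy of Rn4.5s, and 0 of these histone genes. Without these classes 900 genes were higher and 383 lower, a choice made after the data were seen. By the level in the higher library, the share of higher genes was 8.53% at 1 to 3 RPKM, 8.94% at 3 to 10 RPKM, 7.34% at 10 to 30 RPKM, 5.64% at 30 to 100 RPKM and 5.97% from 100 RPKM upward.

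**Figure D2:**
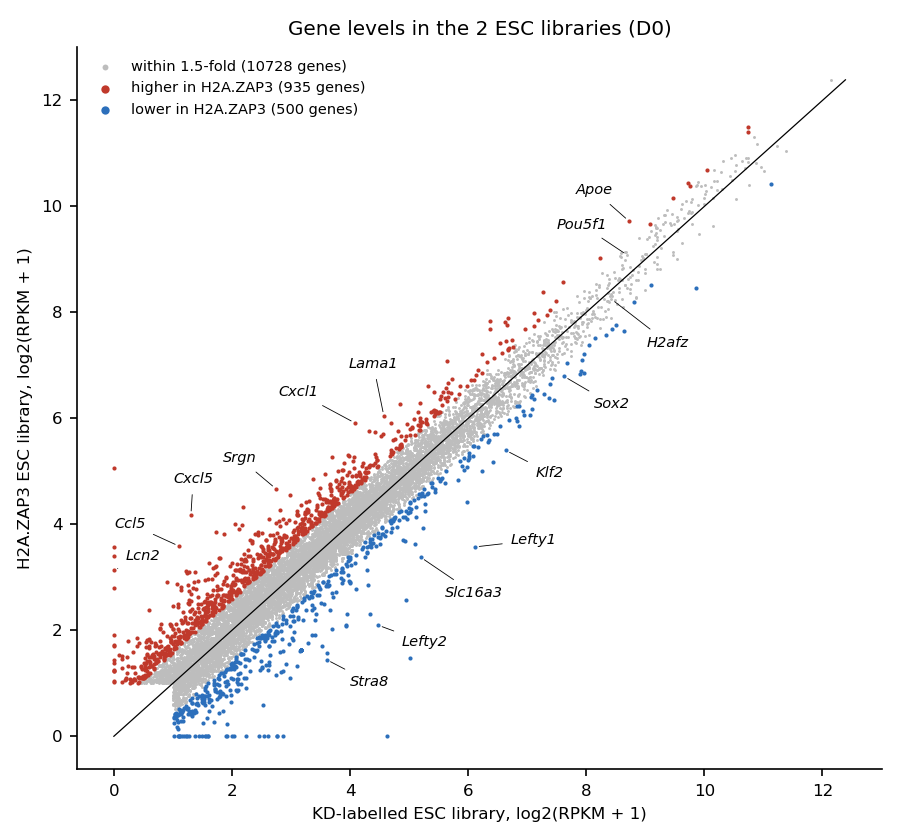
Level of each of the 12163 tested genes in the KD-labelled (x) and H2A.ZAP3 (y) ESC libraries as log2(RPKM + 1). Points off the diagonal by more than 1.5-fold are coloured, 935 above it and 500 below it, with chemokines among the farthest above and Lefty1, Lefty2, Stra8 and Slc16a3 among the farthest below.

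Secreted inflammatory factors were among the genes with the largest increases. Chemokines are small proteins that draw leukocytes and are transcribed in many stromal cells after NF-kB activation. Cxcl5 (chr5:91188325-91190651), a neutrophil attractant, was at 0.893, 1.47 and 17.0 RPKM in H2A.ZWT, KD-labelled and H2A.ZAP3 ESCs, a log2 of 2.87. Ccl5, which attracts T cells, was at 0.692, 1.15 and 11.0 RPKM. Ccl7, a monocyte attractant, was at 2.70, 2.32 and 13.5 RPKM. For each the H2A.ZAP3 library stood alone, with the other libraries close together. Cxcl1 (chr5:91320267-91322141) was at 8.94, 15.9 and 59.3 RPKM, 3.73-fold above the KD-labelled level, and Ccl2, beside Ccl7 on chromosome 11, was at 7.05, 11.9 and 37.6 RPKM. Of 38 listed chemokines and inflammatory cytokines, 19 reached the minimum, 11 were higher and 0 lower, and their median log2 was 0.71. Among the 16 that reached 1 RPKM in the H2A.ZWT library, which is on neither side of the ratio, 8 were higher and 0 lower, beside 6.91% higher and 3.69% lower over all genes chosen in that way.

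Acute-phase and NF-kB response genes included some of the same size of difference. Lcn2, an iron-siderophore binding protein of the acute-phase response, was at 7.75 RPKM in H2A.ZAP3 ESCs and was listed at 0 in the other 5 libraries of the series. The prostaglandin synthase gene Ptgs2 was at 6.88 RPKM in the KD-labelled and 22.5 RPKM in the H2A.ZAP3 library. The complement component C3 was at 1.61 and 5.88 RPKM and the adhesion molecule Vcam1 at 2.47 and 9.31 RPKM. Irf1, a transcription factor that NF-kB and interferon both induce, went the other way, at 18.0 and 9.42 RPKM. In all, 6 of 18 tested NF-kB response genes were higher and 1, Irf1, was lower, with a median log2 of 0.24. Of the 18, 2 reached the minimum in H2A.ZAP3 alone, Lcn2 among them, and with the minimum read from H2A.ZWT 4 of 16 were higher. Osmr, the oncostatin M receptor, was at 1.34 and 7.73 RPKM. Other genes among the 12 with the highest log2 were Rab3il1, which encodes an exchange factor for Rab GTPases, at 3.55 and 19.04 RPKM (log2 2.14), Ifi27l1, an interferon-inducible family member, at 0.856 and 6.56 RPKM (log2 2.03), and Pla2g7, the platelet-activating factor acetylhydrolase, at 2.63 and 13.0 RPKM (log2 1.95).

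Interferon response genes, which encode antiviral effectors, included many with low starting levels that were higher. Ifit1 was at 0.514 RPKM in the KD-labelled and 4.24 RPKM in the H2A.ZAP3 library, and Rsad2 was at 0.316 and 2.62 RPKM. Ifitm3, the most abundant named here, was at 78.9 and 134 RPKM. Of 18 tested, 11 were higher and 0 lower, with a median log2 of 0.65, but 8 of the 18 reached the minimum in H2A.ZAP3 alone. Among the 13 at 1 RPKM or more in H2A.ZWT, 6 were higher. B2m, the light chain of MHC class I, was at 13.9 and 34.7 RPKM and was the only higher gene of the 19 tested MHC class I antigen presentation genes, none of which was lower.

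**Figure D3:**
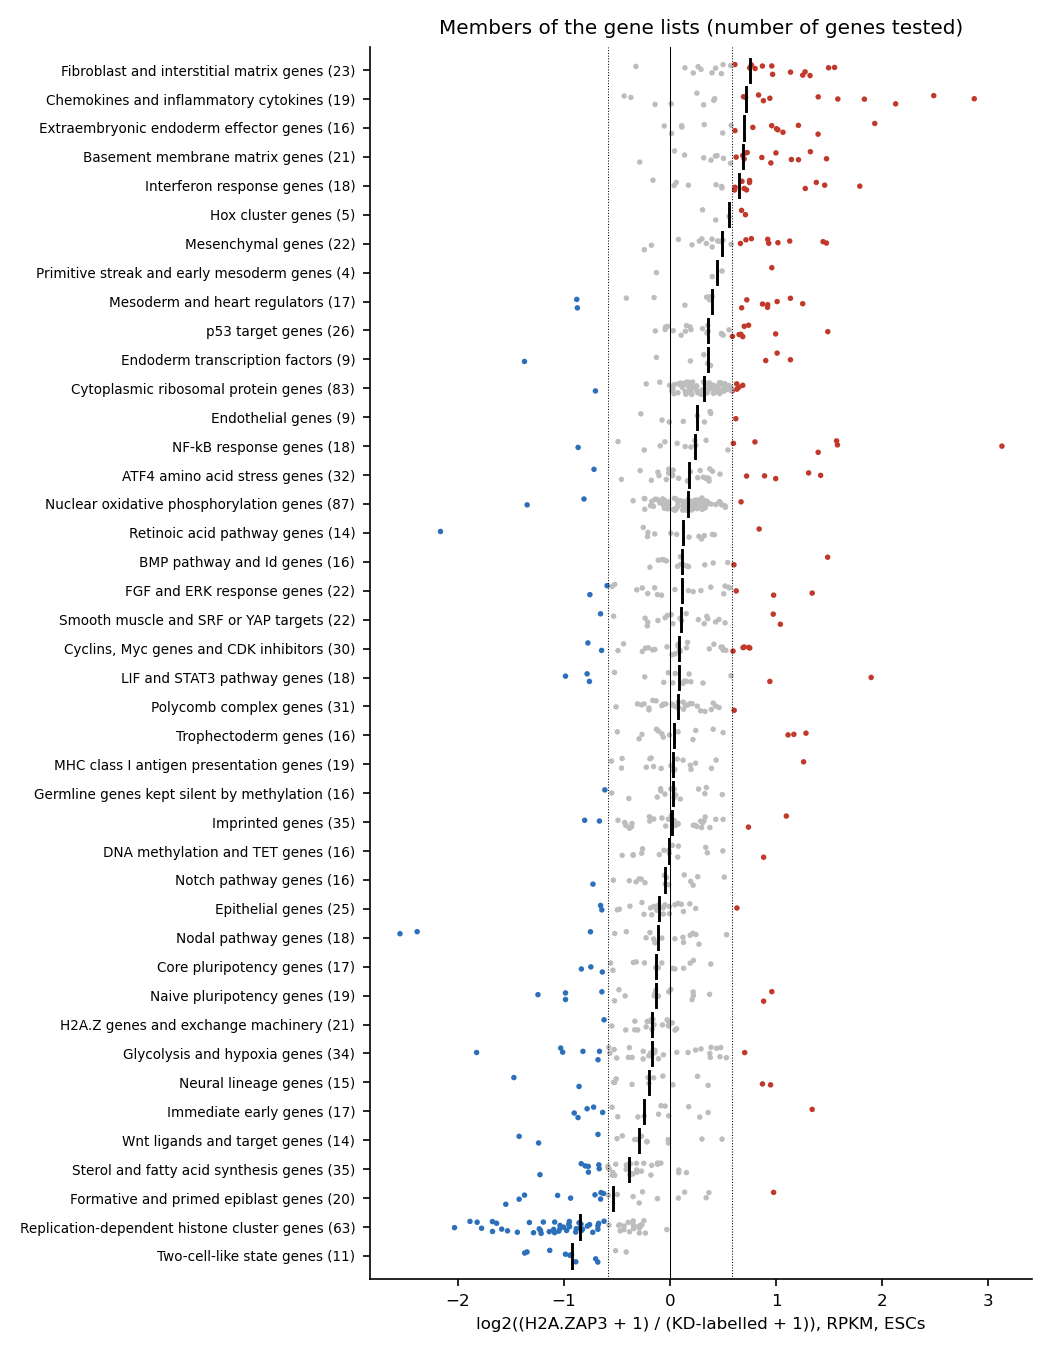
Each tested member of the gene lists (points) by its log2 difference between H2A.ZAP3 and KD-labelled ESCs, with the list's median as a black bar, the 1.5-fold limits dotted, and the number of tested genes in brackets. The fibroblast matrix, chemokine, extraembryonic endoderm, basement membrane and interferon lists have the highest medians, 0.65 to 0.75, and the 2-cell-like, histone cluster and formative lists the lowest, -0.93 to -0.54. The order depends on the minimum: read from H2A.ZWT the highest are extraembryonic endoderm at 0.96, basement membrane at 0.66 and fibroblast matrix at 0.61, and with no minimum the chemokine median is 0.084.

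Extracellular matrix genes of 2 kinds were among the higher genes. Basement membranes are sheets of laminin, type IV collagen, nidogen and perlecan, and parietal endoderm is a rich source of them in early development. Lama1 (chr17:68046605-68171985), the laminin chain of the earliest embryonic basement membranes, was at 17.3, 22.8 and 65.2 RPKM in H2A.ZWT, KD-labelled and H2A.ZAP3 ESCs. Lamb1, its partner chain, was at 42.6, 48.3 and 94.3 RPKM. Col4a1 and Col4a2, a head-to-head gene pair on chromosome 8 that encodes the chains of the main type IV collagen, were at 20.3 and 13.6 RPKM in the KD-labelled and 52.4 and 31.4 RPKM in the H2A.ZAP3 library. Both kinds of chain were thus higher together. Sparc, a collagen-binding glycoprotein, was at 102 and 237 RPKM, and Serpinh1, the collagen chaperone, at 49.8 and 100 RPKM. Of 21 tested basement membrane genes 12 were higher and 0 lower, beside 7.69% higher and 4.11% lower over all tested genes. Their median log2 was 0.69, and their summed level went from 607 to 1033 RPKM. With the minimum read from H2A.ZWT 11 of 20 were higher, beside 6.91% over all genes chosen in that way.

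Genes used in extraembryonic endoderm, the yolk sac lineage that absorbs and processes maternal proteins, were also among the higher genes. Gata4 and Gata6, the transcription factors that direct primitive endoderm, were at 4.94 and 4.38 RPKM in the KD-labelled and 12.1 and 9.84 RPKM in the H2A.ZAP3 library. Sox17 was at 0.977 and 2.70 RPKM. The endocytic receptor Cubn was at 3.95 and 12.03 RPKM, its partner Amn at 1.69 and 5.22 RPKM, and the adaptor Dab2 at 10.2 and 22.4 RPKM. These genes of 1 uptake machinery differed by 1.07 to 1.4 on the log2 scale. Srgn, a proteoglycan core protein, was at 5.69 and 24.5 RPKM, and Apoe, a lipid carrier, at 421 and 846 RPKM. Of 27 listed effector genes 16 reached the minimum, 9 were higher and 0 lower, with a median log2 of 0.70. The shares over all tested genes were 7.69% higher and 4.11% lower. Of the 16, 3 reached the minimum in H2A.ZAP3 alone. With the minimum read from H2A.ZWT 8 of 13 were higher and the median was 0.96, while over all members with no minimum the median was 0.11. In the H2A.ZWT library each of these genes was closer to the KD-labelled than to the H2A.ZAP3 level, and Cubn, for example, was at 2.64 RPKM. Of 9 tested endoderm transcription factors 3 were higher and 1, Otx2, was lower, but 2 of the 9, Sox17 among them, reached the minimum in H2A.ZAP3 alone, and with the minimum read from H2A.ZWT 2 of 5 were higher. Of the 6 endoderm markers given above, the 3 that were higher are Gata4, Gata6 and Sox17 themselves, so the markers are no separate readout. Foxa2 was within the limit at 0.884 and 1.41 RPKM, and Afp and Ttr were listed at 0 in H2A.ZAP3. What part a change in the number of endoderm cells has in the result was not tested.

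Interstitial matrix and mesenchymal genes formed the other matrix group. Dcn, a collagen-binding proteoglycan of connective tissue, was at 0.321, 0.178 and 2.46 RPKM in H2A.ZWT, KD-labelled and H2A.ZAP3 ESCs. The collagen cross-linking enzymes Lox and Loxl1 were at 1.69 and 2.98 RPKM in the KD-labelled and 6.58 and 8.64 RPKM in the H2A.ZAP3 library. Tnc, an adhesion-modulating glycoprotein, was at 2.29 and 7.21 RPKM, and Prrx1, a transcription factor of limb and facial mesenchyme, at 2.89 and 8.26 RPKM. Of 23 tested genes of this list 13 were higher and 0 lower, beside 7.69% and 4.11% over all tested genes, with a median log2 of 0.75. Dcn was 1 of 2 that reached the minimum in H2A.ZAP3 alone, and with the minimum read from H2A.ZWT 11 of 21 were higher and the median was 0.61. The growth factors Fgf7 and Fgf10, which mesenchyme sends to epithelium, were at 3.13 and 1.36 RPKM in the KD-labelled and 15.2 and 7.44 RPKM in the H2A.ZAP3 library. Of the 8 fibroblast markers given above, 4 of the 6 tested were higher and 0 lower, and the sum went from 24.2 to 47.3 RPKM. Dcn, Col3a1 and Thy1 at least are also members of this list, so the markers are no separate readout of it. The part of fibroblasts in this group and in the chemokine and interferon differences was not tested.

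In the mesenchymal list the H2A.ZWT library stood nearer to H2A.ZAP3. Vim, the intermediate filament of mesenchymal cells, was at 87.1, 52.2 and 107 RPKM in H2A.ZWT, KD-labelled and H2A.ZAP3 ESCs. Anxa1, a membrane-binding annexin, was at 24.3, 9.41 and 27.96 RPKM. Lgals1, a secreted galectin, was at 94.6, 49.1 and 135 RPKM. For all of these the KD-labelled library was the low one. Of 22 tested genes 9 were higher and 0 lower. The median log2 of H2A.ZAP3 to KD-labelled was 0.49, that of H2A.ZWT to KD-labelled 0.36, and that of H2A.ZAP3 to H2A.ZWT 0.22, 3 ratios that share libraries. For the chemokines the same medians were 0.71, 0.00 and 0.64, and for the basement membrane genes 0.69, -0.05 and 0.62.

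**Figure D4:**
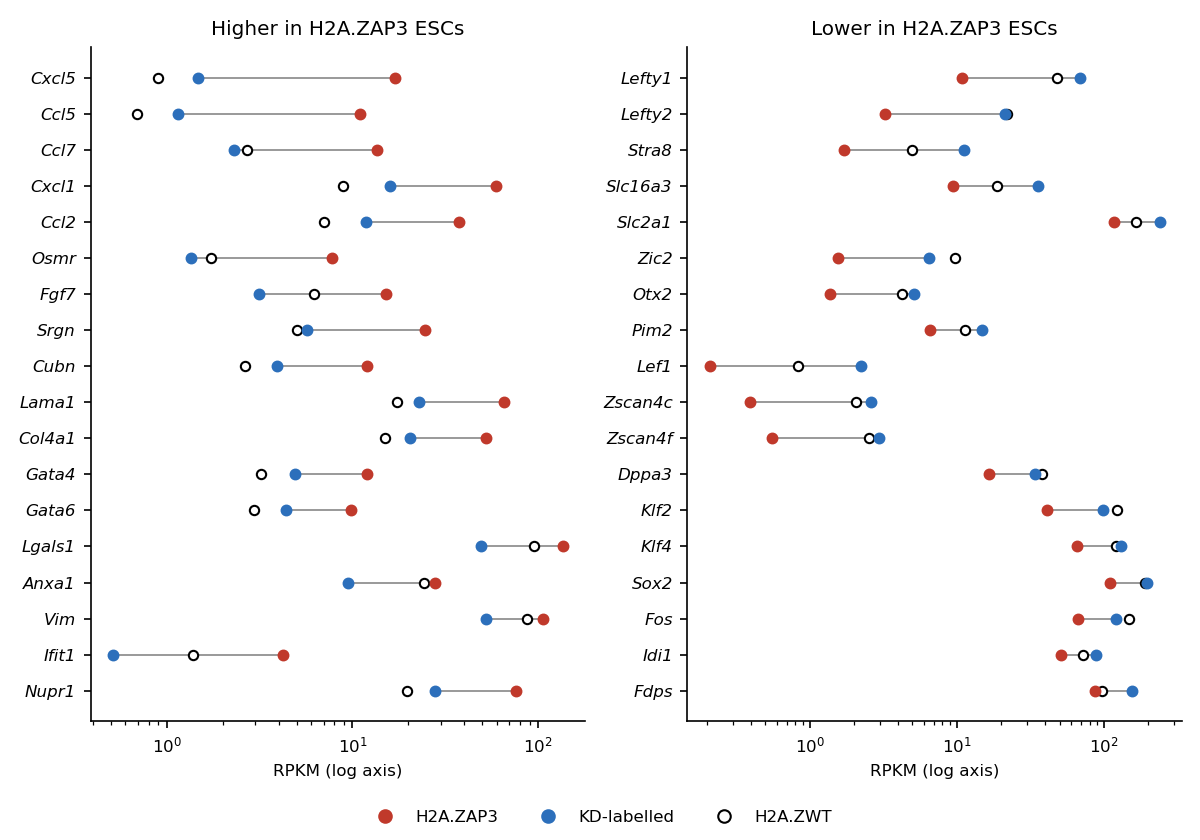
Levels of 36 named genes in the 3 ESC libraries on a log RPKM axis, each point 1 library, with a line from the KD-labelled to the H2A.ZAP3 level. The open H2A.ZWT points lie near the KD-labelled points for most chemokine, endoderm and pluripotency genes but near H2A.ZAP3 for Anxa1, Vim and Fdps.

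Regulators of later lineages were mostly silent. Of 41 listed mesoderm and heart regulators 17 reached the minimum, of which 8 were higher and 2 lower, with a median log2 of 0.40, and 6 of the 17 reached it in H2A.ZAP3 alone. With the minimum read from H2A.ZWT 6 of 14 were higher and 2 lower, with a median of 0.37, and with no minimum the median was 0.13. The highest of those named were Gata4 and Gata6 again, followed by Prrx1 and by Twist1, a mesenchymal transcription factor, at 2.36 and 5.37 RPKM. Foxc1, of somite and vessel development, was at 0.690 and 2.20 RPKM, and the heart factor Tbx20 at 0.636 and 2.00 RPKM. Only 5 of 39 Hox genes and 4 of 20 primitive streak genes were tested. Hoxb4 and Hoxb8 were higher at 1.35 and 1.37 RPKM against 0.473 and 0.449 RPKM, so both reached the minimum in H2A.ZAP3 alone, as did 3 of the 5 tested Hox genes. Of the 2 Hox genes at 1 RPKM or more in H2A.ZWT, 0 were higher. Of 15 tested neural genes 2 were higher and 2 lower: Neurod1, a neuronal differentiation factor, was at 5.66 and 11.8 RPKM, while Tubb3, the neuronal tubulin, was at 33.4 and 11.4 RPKM. Of 20 genes used in the study's own panels, 15 were tested, 5 were higher (Nagk, Neurod1, Foxc1, Tbx20 and Hoxb4) and 1, Nanog, was lower. Of the 15, 4 reached the minimum in H2A.ZAP3 alone, among them Foxc1, Tbx20 and Hoxb4, and with the minimum read from H2A.ZWT 3 of 12 were higher and the median log2 went from 0.17 to -0.099. That panel was chosen by the study on its own lines and is no independent evidence of a direction.

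Pluripotency factors divided. Pou5f1, which encodes Oct4, was at 421, 413 and 540 RPKM in H2A.ZWT, KD-labelled and H2A.ZAP3 ESCs, within 1.5-fold. Sox2 (chr3:34548927-34551383), the DNA-binding partner of Oct4, was at 191, 196 and 110 RPKM. The entry that joins Nanog with a pseudogene was at 136, 115 and 73.9 RPKM, and reads of the copies may be split. Klf2 (chr8:74842932-74845555) and Klf4, Kruppel-like factors of the naive state, were at 98.6 and 131 RPKM in the KD-labelled and 41.1 and 65.9 RPKM in the H2A.ZAP3 library. Sox2, Nanog, Klf2 and Klf4 were thus each lowest in H2A.ZAP3 while Oct4 was highest there. Of 17 tested core pluripotency genes 0 were higher and 3 were lower (Sox2, L1td1 and Nanog). Of 19 naive genes 4 were lower and 2 higher, the secreted phosphoprotein Spp1 at 195 and 380 RPKM and Zfp57, which guards imprints, at 91.8 and 170 RPKM.

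Among genes of the formative and primed epiblast, the state that follows naive pluripotency, several with low levels were lower. Zic2 was at 9.76, 6.51 and 1.57 RPKM in H2A.ZWT, KD-labelled and H2A.ZAP3 ESCs. Otx2, a head and epiblast transcription factor, was at 4.22, 5.14 and 1.37 RPKM. Fgf5, the classical epiblast marker, was at 0.539, 1.11 and 0.106 RPKM. Of 20 tested genes 9 were lower, 1 was higher, 10 were within the limit and the median log2 was -0.54. With the minimum read from H2A.ZWT, 6 of 17 were lower and the median was -0.35, and 3 of the 20 had reached the minimum in the KD-labelled library alone. The summed level of the list was 382 RPKM in the KD-labelled and 351 RPKM in the H2A.ZAP3 library. The gene that went the other way was Etv4, a transcription factor induced by FGF signalling, at 34.4 and 68.7 RPKM.

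Lefty1 and Lefty2 had the lowest log2 of the genes named here, on the log2(RPKM + 1) scale. They encode secreted inhibitors of Nodal, are themselves Nodal targets and lie beside each other on chromosome 1 (chr1:182865153-182868531 and chr1:182823239-182829234). Lefty1 was at 47.8, 68.4 and 10.9 RPKM in H2A.ZWT, KD-labelled and H2A.ZAP3 ESCs, 6.27-fold lower in the last than in the KD-labelled library. Lefty2 was at 22.1, 21.3 and 3.27 RPKM, 6.5-fold lower. In both genes the H2A.ZAP3 library was far below the other ESC libraries. Skil, a repressor of SMAD signalling that the pathway induces, was at 31.8 and 18.5 RPKM. These were the only 3 of 18 tested Nodal pathway genes past the limit, the median log2 was -0.11, and none was higher.

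The other signalling lists are to be read beside the 7.69% higher and 4.11% lower over all tested genes, and several had shares near these. In the Wnt list 3 of 14 tested genes were lower and 0 higher: Lef1, a nuclear effector of the pathway, was at 2.24 and 0.210 RPKM, a larger plain fold than that of Lefty1 but from a low level, Notum, which inactivates Wnt proteins, at 4.96 and 1.53 RPKM, and the ligand Wnt4 at 1.07 and 0.292 RPKM. Lef1 and Wnt4 reached the minimum in the KD-labelled library and not in H2A.ZAP3, and with the minimum read from H2A.ZWT 2 of 12 were lower. Of 17 immediate early genes 5 were lower, among them Fos at 122 and 66.3 RPKM and Fosb at 62.04 and 32.7 RPKM, while Ier3 was higher at 14.6 and 38.5 RPKM. In the LIF and STAT3 list the feedback inhibitor Socs3 was at 80.3 and 47.1 RPKM and the ligand gene Lif at 4.56 and 9.68 RPKM, so that 3 of 18 were lower and 2 higher. Among FGF and ERK response genes 3 of 22 were higher and 2 lower. Stra8, a meiotic entry gene induced by retinoic acid, was at 4.96, 11.2 and 1.72 RPKM in H2A.ZWT, KD-labelled and H2A.ZAP3 ESCs, but Cyp26b1, which degrades retinoic acid, was at 0.372 and 1.46 RPKM and reached the minimum in H2A.ZAP3 alone. With the minimum read from H2A.ZWT, 0 of 14 retinoic acid genes were higher and 1 was lower. Grem1, a secreted BMP inhibitor, and Id1, a BMP target, were the only higher genes of 16 in the BMP list, at 5.15 and 16.2 RPKM and at 11.0 and 17.2 RPKM. Of 16 Notch genes 1, the ligand Dll3, was lower.

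Genes of the 2-cell-like state, a transient condition of a few cells in an ESC culture that resembles the 2-cell embryo, were mostly lower. Zscan4c was at 2.07, 2.59 and 0.392 RPKM in H2A.ZWT, KD-labelled and H2A.ZAP3 ESCs. Zscan4f was at 2.55, 2.96 and 0.558 RPKM. Zscan4b, Zscan4d and Zscan4e were also lower, but these paralogs are near-identical and reads may be split among them, so they are not independent measurements. Of 21 listed genes 11 were tested, 9 were lower and 0 higher, the median log2 was -0.93, and the summed level was 57.9, 58.9 and 25.2 RPKM. Of the 11, 8 reached the minimum in the KD-labelled library and not in H2A.ZAP3. With the minimum read from H2A.ZWT all 9 were lower. Dppa3, which is abundant in naive ESCs generally, was the most highly expressed of those named, at 33.8 and 16.6 RPKM.

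Stress and growth genes gave the following values, to be read beside 7.69% higher and 4.11% lower over all tested genes. Of 26 tested p53 targets 8 were higher and 0 lower, with a median log2 of 0.36. With the minimum read from H2A.ZWT 7 of 25 were higher, beside 6.91% over all genes chosen in that way. Cdkn1a, the p21 inhibitor of the cell cycle, was at 35.2 and 57.9 RPKM, and the stress cytokine Gdf15 was at 2.31 and 8.30 RPKM. The CDK inhibitors Cdkn1b and Cdkn2b were at 17.0 and 1.18 RPKM in the KD-labelled and 29.1 and 2.68 RPKM in the H2A.ZAP3 library. Mycn, a Myc family transcription factor, was lower, at 63.9 and 36.9 RPKM. In the cell cycle list 5 of 30 were higher and 2 lower. Of 32 ATF4 target and amino acid stress genes 5 were higher, including Nupr1 at 27.8 and 76.0 RPKM, Trib3 at 20.5 and 39.0 RPKM and Asns, asparagine synthetase, at 179 and 296 RPKM, and 1 was lower, Atf5.

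In 2 metabolic lists a minority of genes was past the limit on the lower side, to be read beside 4.11% lower and 7.69% higher over all tested genes. Of 35 tested sterol and fatty acid synthesis entries 7 were lower and 0 higher, with a median log2 of -0.38. Of the 35, 32 had a log2 below 0 and 3 above 0, where 53.8% of all tested genes were above 0. Fdps, which makes farnesyl diphosphate, was at 96.6, 156 and 86.8 RPKM in H2A.ZWT, KD-labelled and H2A.ZAP3 ESCs. Idi1, the isopentenyl diphosphate isomerase, was at 72.1, 88.3 and 51.4 RPKM. In both genes the KD-labelled library stood above the H2A.ZWT and H2A.ZAP3 libraries. In glycolysis and hypoxia genes 6 of 34 were lower and 1 higher: the lactate exporter Slc16a3 was at 18.7, 35.7 and 9.39 RPKM, and the glucose transporter Slc2a1 at 165, 239 and 118 RPKM.

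Replication-dependent histone genes, whose mature mRNAs end in a stem-loop and lack a poly(A) tail, were lower in 42 of 63 tested entries and higher in 0, with a median log2 of -0.85. Hist1h4f was at 3.42, 11.2 and 1.98 RPKM in H2A.ZWT, KD-labelled and H2A.ZAP3 ESCs. The copies of each histone are near-identical, so single entries are uncertain, and oligo(dT) selection recovers only a small part of these RNAs. Among entries of 5 RPKM or more in either library the median was -0.43, and 26 of the 63 reached the minimum in the KD-labelled library alone. Of 83 ribosomal protein genes 79 had a log2 above 0, beside 53.8% of all tested genes, with a median of 0.32, while 5 were higher and 1, Rpl39l, was lower, and they made up 17.6% of all summed RPKM in the KD-labelled and 20.8% in the H2A.ZAP3 library. Nuclear oxidative phosphorylation genes had a median of 0.17, with 1 of 87 higher and 2 lower.

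Chromatin genes stayed near the background. Of 31 tested Polycomb genes 1 was higher, Pcgf1, which defines a variant PRC1, at 9.65 and 15.2 RPKM, and 0 were lower. Of 16 DNA methylation and TET genes 1 was higher, Zfp57. Of 16 germline genes that DNA methylation keeps silent 0 were higher and 1, Tex19.1, was lower. Imprinted genes gave 2 higher and 2 lower of 35, and epithelial genes 1 higher and 2 lower of 25. Trophectoderm genes gave 3 higher (Tead4, Ly6a and Plac8) of 16, smooth muscle and YAP target genes 2 higher and 1 lower of 22, and endothelial genes 1 higher of 9.

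In EBs at D3, from separate libraries of the same lines, so not independent of the ESC pair, 388 of 11943 tested genes (3.25%) were higher and 372 (3.11%) were lower in H2A.ZAP3 than in the KD-labelled library. Of the 757 genes that were higher in H2A.ZAP3 ESCs and tested at D3, 79 (10.4%) were higher again and 60 (7.93%) were lower. Of the 425 that were lower in ESCs and tested, 25 (5.88%) were lower again and 33 (7.76%) were higher. Without small RNA and histone genes, a choice made after the data were seen, 15 (4.34%) of 346 were lower again and 15 (4.34%) were higher, and of 741 genes higher in ESCs 72 (9.72%) were higher again and 57 (7.69%) lower. Differentiation separates the days, so that the pairs compare different cell states.

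The matrix groups took different courses at D3. Of 24 extraembryonic endoderm effector genes tested at D3, 19 were lower and 1 higher, with a median log2 of -0.93, where 9 of 16 had been higher and 0 lower in ESCs. Of the 24, 5 reached the minimum in the KD-labelled EBs alone, and with the minimum read from H2A.ZWT EBs 15 of 20 were lower, beside 2.8% higher and 2.72% lower over all genes chosen in that way. The 6 endoderm markers moved with them, from 62.7 RPKM in KD-labelled to 33.9 RPKM in H2A.ZAP3 EBs (Ttr 8.57 and 1.10 RPKM, Afp 2.38 and 0.192 RPKM), and their part in the result was not tested. Cubn went from 3.95 to 93.3 RPKM between the KD-labelled ESCs and EBs and from 12.03 to 34.6 RPKM between the H2A.ZAP3 ESCs and EBs, and H2A.ZWT EBs held 26.2 RPKM. Lama1 went from 22.8 to 123 RPKM in the KD-labelled libraries and was at 65.2 RPKM in H2A.ZAP3 ESCs and 64.7 RPKM in H2A.ZAP3 EBs, with 69.0 RPKM in H2A.ZWT EBs. For both, the KD-labelled EB library was the highest and the H2A.ZAP3 level was near that of H2A.ZWT. Of 20 basement membrane genes tested at D3, 8 were lower and 0 higher, with a median of -0.47.

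Of 20 mesenchymal genes tested at D3, 7 were higher and 0 lower, with a median log2 of 0.36, and with the minimum read from H2A.ZWT EBs 6 of 19 were higher. Anxa1 was at 1.06 RPKM in KD-labelled and 4.08 RPKM in H2A.ZAP3 EBs, and Vim at 14.5 and 30.9 RPKM. Fibroblast matrix genes had 5 higher and 2 lower of 14, of which 6 reached the minimum in H2A.ZAP3 alone. With the minimum read from H2A.ZWT EBs 2 of 10 were higher and 2 lower. The fibroblast markers, some of them members of that list, summed to 7.47 RPKM in KD-labelled and 9.92 RPKM in H2A.ZAP3 EBs. Thy1, the most abundant of them, alone went down, at 5.48 and 3.56 RPKM. Col1a1 was at 0.923 and 2.57 RPKM and Col1a2 at 0.591 and 2.36 RPKM. The part of fibroblasts in the difference was not tested. The leading chemokines Cxcl5, Ccl5, Ccl7 and Cxcl1 were at 0.628 RPKM or less in every EB library: Cxcl5 was at 0.211 and 0.148 RPKM and Ccl7 at 0 and 0.628 RPKM. Ccl2 was at 0.260 and 1.15 RPKM, so that it reached the minimum at D3 in H2A.ZAP3 alone among this pair. Of 11 chemokine list genes tested at D3, 2 were higher and 0 lower, and with the minimum read from H2A.ZWT EBs 1 of 8 was higher. Of 9 interferon genes tested at D3, 0 were higher and 0 lower. Lefty1 was at 75.1 RPKM in KD-labelled and 147 RPKM in H2A.ZAP3 EBs, the opposite of its order in ESCs, and Lefty2 at 57.1 and 56.3 RPKM. Sox2, at 141 and 160 RPKM, and Otx2, at 24.6 and 17.5 RPKM, were within 1.5-fold at D3. Of 22 FGF and ERK response genes tested at D3, 8 were higher and 0 lower, among them Etv4 at 7.53 and 23.4 RPKM, which was higher in H2A.ZAP3 on both days.

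**Figure D5:**
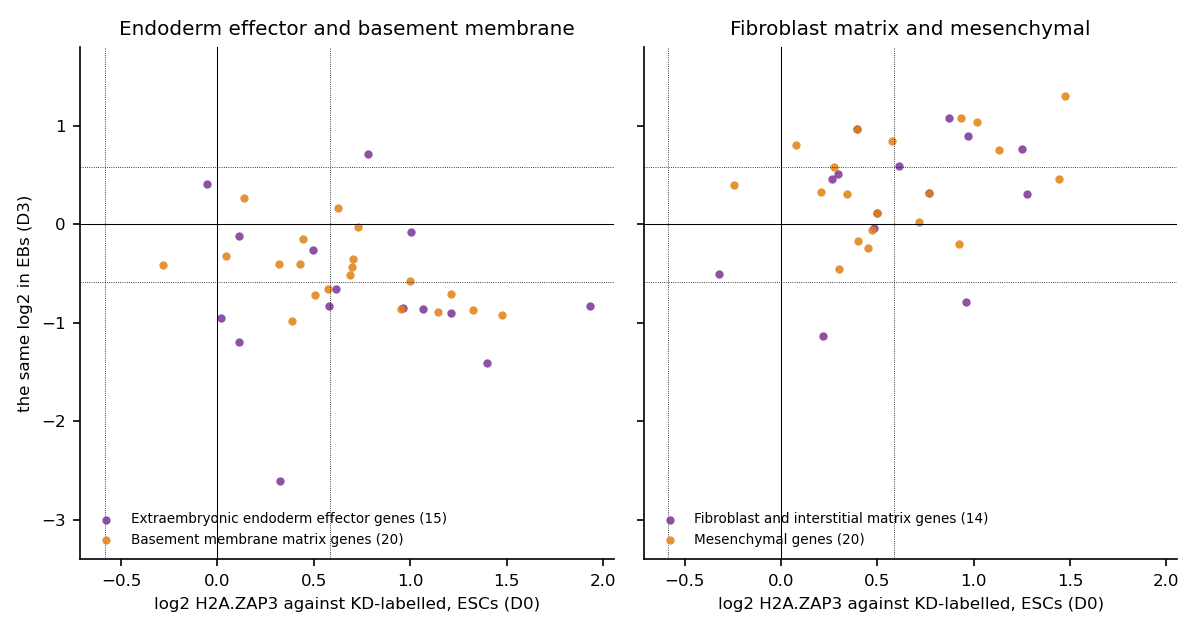
The log2 difference between H2A.ZAP3 and KD-labelled libraries in ESCs (x) and in EBs (y) for members tested on both days, 15 and 20 genes in the left panel and 14 and 20 in the right, with 1.5-fold limits dotted. A gene in both lists of a panel is drawn once for each. Most endoderm and basement membrane genes are right of 0 and below it, and most mesenchymal genes are right of 0 and above it.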

How the data were processed

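RNA was isolated with TRIzol, selected with oligo(dT) and made into Illumina TruSeq libraries. The authors mapped the reads, single-end, on mm9; their tools were Bowtie 0.12.7 and TopHat (version 1.14 in the submitters' processing notes), allowing 2 mismatches and 20 locations, and RPKM came from Cufflinks 1.3.0, so reads of near-identical copies can be split. No use of strand is stated. The deposited table holds RPKM for 6 libraries and 6 log2 ratio columns of the authors, which were not used. Here log2((RPKM + 1)/(RPKM + 1)) was taken between libraries for entries with 1 RPKM or more in either, and called past 1.5-fold. With 1 library per condition no test was run. Depth was estimated from the smallest steps between RPKM values of 3696 genes. Genes named are H2afz, H2afv, Pou5f1, Sox2 and Nanog, the 12 highest and the 12 lowest log2 at 5 RPKM or more (predicted genes and small RNA genes recognised by the start of their symbol left out, which keeps Rpph1), up to 6 members of each of 43 lists with the largest change past 1.5-fold (or the 2 most expressed where fewer than 2 passed), and the study's panel genes. The members and lists were chosen with earlier results of these data known. The scripts were tested on simulated data. Alternatives were a pseudocount of 0.1, no minimum, a minimum of 5 RPKM, a 2-fold limit, centring and summing entries per symbol, and, added after the data were seen, leaving out small RNA and histone genes and taking the minimum from the H2A.ZWT library of the same day. Locations are from GENCODE on NCBIM37. Python 3.11.15, numpy 2.4.6, pandas 2.3.3 and matplotlib 3.10.9 were used.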

Additional observations from a re-analysis of the deposited data

Results flagged for a closer look

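In all, 22 named genes were past 1.5-fold in one direction in ESCs and in the other in EBs at D3; the difference between the days was not tested, and each day has 1 library per line. Among matrix and endoderm genes, higher in H2A.ZAP3 ESCs, the D3 log2 was -0.92 for Lama1, -0.86 for Lamb1, -0.872 for Col4a1, -0.892 for Col4a2, -0.713 for Sparc, -1.4 for Cubn, -0.899 for Amn, -0.865 for Dab2, -0.83 for Srgn and -0.753 for Gata4. Also higher in ESCs and lower at D3 were Pdgfra at -0.785, a growth factor receptor of mesenchyme and primitive endoderm, Plac8 at -1.37, B2m at -0.624 and Polk, a translesion polymerase and p53 target, at -0.652. Lower in ESCs and higher at D3 were Lefty1 at 0.956, the imprinted gene Nnat at 0.964, the FGF feedback inhibitor Spry4 at 0.694 and the immediate early gene Junb at 0.586. The histone entries Hist1h4f at 0.77, Hist1h4h at 0.612 and Hist2h2bb at 0.95, and Rpph1, the RNase P RNA, at 0.734 were of the same kind, and all 4 encode RNAs that poly(A) selection recovers poorly.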

How the results depend on the processing

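With a pseudocount of 0.1, 1354 genes were higher and 768 lower in H2A.ZAP3 ESCs. With a minimum of 5 RPKM, 621 were higher and 296 lower, and past 2-fold 209 were higher and 137 lower. Without a minimum (967 and 531), centred on the median (838 and 565), with entries summed per symbol (934 and 494) and with the minimum taken from the H2A.ZWT library (816 and 435, added after the data were seen) the counts stayed within 1.5 times the 935 and 500 reported. No named gene past the limit changed direction under any alternative it was computed for, but this is little test of direction. The pseudocount, the minimum and the limit cannot change the sign of a log2, and centring shifts every gene by the median of 0.03. Centring took Id1, Pcgf1 and Rps21 below the limit, at 0.57, 0.58 and 0.56, and 87 named genes were past 1.5-fold but not past 2-fold. The median of the chemokine list ranged from 0.084 without a minimum to 1.71 at 5 RPKM, and that of the 2-cell-like list from -1.32 with a pseudocount of 0.1 to -0.42 without a minimum. Without a minimum, which adds genes near 0 in both libraries, 14 of 43 list medians moved by 0.1 or more, among them extraembryonic endoderm to 0.11, mesoderm and heart to 0.13, Hox to 0.16, endoderm transcription factors to 0.16 and Wnt to -0.014. At 5 RPKM the extraembryonic endoderm median was 1.04, the mesoderm and heart median 0.97 and the histone median -0.43, and with a pseudocount of 0.1 the Hox median was 1.25. No paired analysis was possible because each line and day has 1 library and the labels give no replicate numbers, and for the same reason no library could be left out.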
